A study of Oryza sativa Japonica Group with 64 samples.

Results

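The rice leaf genes described here are 100 of the 55986 genes in the deposited leaf table, the ones with the steepest evening peak under long days. They were chosen from measured values. Over the 24 long-day leaf libraries, a gene had to have its highest mean at 20:00 and at least 10 CPM (counts scaled to library size) there. That left 5516 genes, which were ranked by the ratio of the 20:00 mean to the lowest of the 6 time means, each with 0.5 CPM added, and the first 100 were taken. All 100 were measured well enough to be tested in leaves, and 93 of them in anthers.

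In plants a circadian clock of mutually repressing transcription factors is reset by light, and it times the transcription of a large share of leaf genes to certain hours. Genes that peak around dusk sit at the change from photosynthetic carbon gain to the use of stored starch and sugar at night. In rice, an evening-expressed gene of the flowering pathway is also part of how day length is read.

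The samples were rice, Oryza sativa ssp. japonica cultivar 9522, grown in paddy fields in Shanghai. Wild-type plants (WT) were compared with csa, a mutant of the MYB transcription factor CSA (carbon starved anther), known to be male sterile in short days and fertile in long days. Long days (LD) were the natural days of about 14.5 h of light, and short days (SD) were days of 12 h of light, made by covering plots with lightproof film from 18:00 to 6:00. The hour of dusk in LD is not given in the labels. Flag leaves were taken when the anthers of the same tillers were at stage 12, every 4 h from 08:00 to 04:00, and anthers were taken at 16:00 and 04:00. Every combination of tissue, genotype, day length and time had 2 biological replicates, which makes 48 leaf and 16 anther libraries. The labels do not say whether replicates came from separate plots, so p-values measure the spread between these samples only, and the nature of the csa mutation is not given.

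Library totals lay between 12913111 and 20451568 counts in leaves and between 18049365 and 25960164 counts in anthers. Levels below are CPM on library totals scaled by the trimmed mean of M values (TMM). They are not divided by gene length, so levels are compared between libraries and not between genes. The 6 leaf markers of photosynthesis summed to between 21060 and 203700 CPM in leaf libraries and to between 525 and 3347 CPM in anther libraries. The 6 anther markers summed to at most 3.95 CPM in leaf libraries and to at least 1576 CPM in anther libraries. The transcript of CSA itself, LOC_Os01g16810, overlapped between the genotypes in SD anthers. There it was between 85.1 and 123 CPM in the 4 WT libraries and between 87.5 and 135 CPM in the 4 csa libraries. In LD anthers it was higher in csa, at 105.6 to 244 CPM in 4 libraries. The 4 WT libraries of LD anthers held 38.0 to 79.6 CPM, with no overlap. In the 4 libraries labelled SD 12:00, all 20 values of 5 marker genes with a genotype difference of at least 4-fold in LD leaves and in anthers were closer to the other genotype than to the labelled one, against 0 of 100 values in the other SD leaf libraries. Comparisons of genotypes in SD leaves therefore use the other 5 times. In bulk tissue, fewer cells of a type and less RNA per cell cannot be told apart.

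The choice itself looked as follows in LD, on unscaled totals. The ratio of the 20:00 mean to the lowest mean ran from 18.1 to 307 with a median of 27.5. The lowest time was 08:00 for 71 of the genes, 12:00 for 24, 04:00 for 3 and 16:00 for 2. The next highest time was 00:00 for 61, 16:00 for 38 and 04:00 for 1. LOC_Os10g03669, the last gene taken, had a ratio of 18.14, and LOC_Os02g04640, the first left out, had 18.06. Just inside the limit were also LOC_Os03g08490 (18.8), LOC_Os03g50510 (18.7), LOC_Os01g01740 (18.5) and LOC_Os08g44590 (18.4). Just outside it were LOC_Os05g41220 (18.0), LOC_Os11g40590 (17.9), LOC_Os07g19030 (17.8) and LOC_Os06g08110 (17.8). These numbers, and all LD levels by time below, are descriptions of what the choice used and carry no test.

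The TMM factors of the LD libraries were higher at 20:00 (1.26 to 1.41) than at 08:00 (0.63 to 0.79), so the scaling lowers the 20:00 levels relative to the unscaled totals of the rule. On the scaled levels, 72 of the 100 genes still had their highest LD mean at 20:00, 21 had it at 16:00, 6 at 00:00 and 1 at 04:00. The median gene stood at 4.20% of its own 20:00 level at 08:00 in LD, at 7.5% at 12:00, at 53.4% at 16:00, at 58.5% at 00:00 and at 22.0% at 04:00. Among the other 5416 genes with a 20:00 maximum, the median level at 08:00 was 72.4% of that at 20:00. The members were spread over all 12 chromosomes by their locus identifiers.

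The members divide into 4 shapes by whether a neighbouring time held at least 50% of the 20:00 level in LD. In 35 genes both 16:00 and 00:00 did (broad), in 28 only 00:00 did (night side), in 17 only 16:00 did (afternoon side) and in 20 neither did (narrow). With the same limit in SD, 70 of the 100 genes kept their shape. The 20 narrow genes had 14 narrow profiles in SD, and the 28 night-side genes had 23 night-side profiles.

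**Figure D1:**
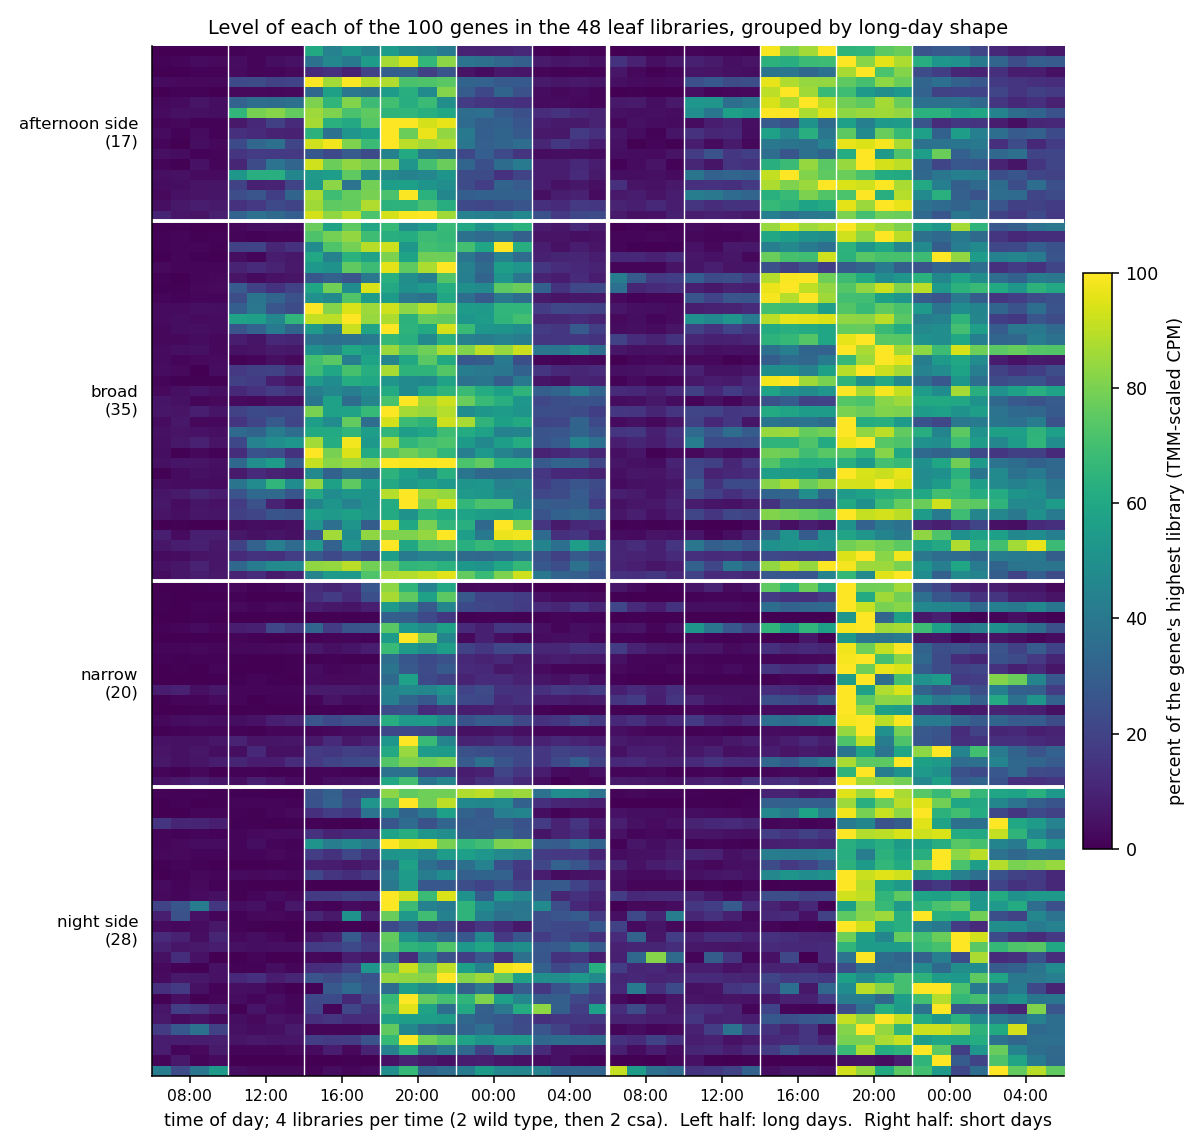
Level of each of the 100 genes (rows) in each of the 48 leaf libraries (columns), as a percent of that gene's highest library, with LD on the left and SD on the right. Rows are grouped by LD shape (17 afternoon-side, 35 broad, 20 narrow and 28 night-side genes); the bright columns at 20:00 return in SD, and the morning columns at 08:00 are mostly dark in both day lengths, apart from single libraries of some night-side genes.

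The short-day libraries did not enter the choice, and they were used to test the evening peak. In SD, 99 of the 100 genes were higher at 20:00 than over the other 5 times (edgeR quasi-likelihood test, Benjamini-Hochberg adjusted p under 0.05). Of all 22095 leaf genes tested, 32.4% were called higher and 23.3% lower in the same comparison, 55.8% together. The log2 fold change, which is the difference between mean log2 levels and not the ratio of mean CPM, ran from 0.49 to 6.75 over the members with a median of 1.94, against a median of 0.06 over all tested genes. It passed and was above 2-fold for 96 members, which can hold for at most 32.4% of all tested genes. The SD maximum fell at 20:00 for 65 members, at 00:00 for 16, at 16:00 for 15 and at 04:00 for 4. Of the other 5416 genes with an LD maximum at 20:00, 22.6% had their SD maximum at that hour, as had 15.4% of all tested genes.

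Against the neighbouring times the members divided. In SD, 71 were higher at 20:00 than at 16:00 and 5 lower, where 26.7% of all tested genes were called higher and 26.4% lower, 53.2% together. Against 00:00, 64 were higher and 6 lower, with 17.6% of all tested genes called in each direction and 35.2% together. Both sides were passed upward by 44 members, which can hold for at most 17.6% of all tested genes. The libraries at 20:00 and 16:00 did not overlap in 81 of the 100 members and in 51.6% of all tested genes. Between 20:00 and 00:00 there was no overlap in 61 members and in 32.9% of all tested genes. The LD shapes carried over: of the 20 narrow genes 19 were higher at 20:00 than at 16:00, all but LOC_Os05g28740, and 19 were higher than at 00:00, where LOC_Os02g54254 was lower (−0.58). All 28 night-side genes were higher than at 16:00 while 7 were higher and 5 lower than at 00:00, and 16 of the 17 afternoon-side genes were higher than at 00:00 while 7 were higher and 2 lower than at 16:00. Of the 35 broad genes, 17 were higher and 3 lower than at 16:00, and 22 were higher than at 00:00.

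**Figure D2:**
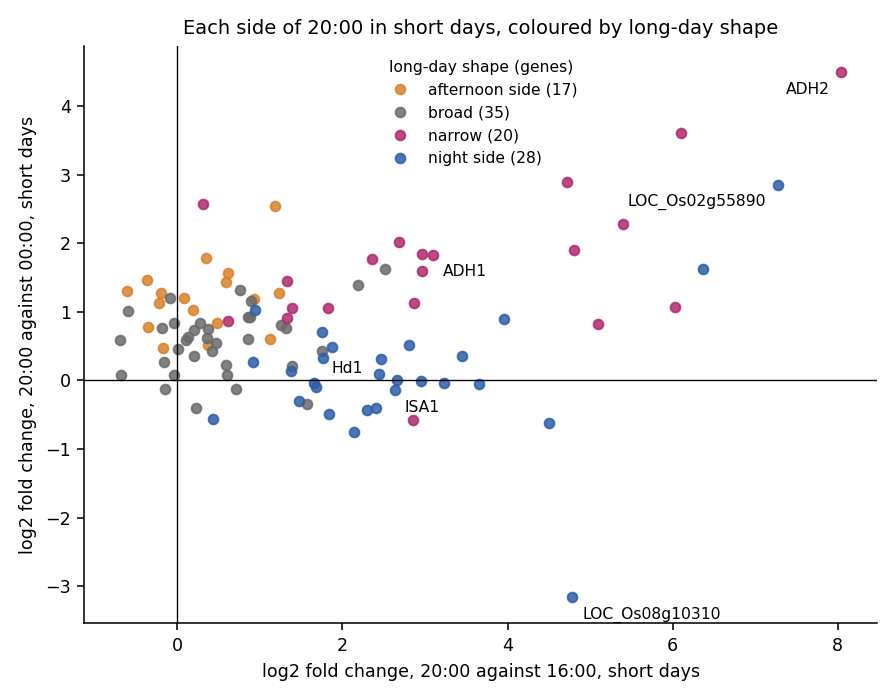
For each of the 100 genes, the log2 fold change of 20:00 against 16:00 (horizontal) and against 00:00 (vertical) in SD, coloured by LD shape. Narrow genes lie mostly in the upper right, with ADH2 at 8.04 and 4.49, night-side genes lie along the horizontal axis, and LOC_Os08g10310 lies alone at the bottom at −3.16 against 00:00.

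The steepest evening change was in ADH2 (LOC_Os11g10510), which encodes an alcohol dehydrogenase, the enzyme that turns acetaldehyde into ethanol in fermentation. Its name, like that of its neighbour ADH1 (LOC_Os11g10480), was attached after the values were seen. In SD at 20:00 the 2 WT libraries held 69.3 and 132 CPM and the 2 csa libraries 43.2 and 74.9 CPM. At 16:00 ADH2 was at 0.327 and 0.123 CPM in WT and at 0.543 and 0.185 CPM in csa. At 00:00 it was at 8.73 and 11.5 CPM in WT and at 1.39 and 0.924 CPM in csa. The 20:00 values did not overlap with either neighbour. ADH2 was higher at 20:00 than at 16:00 by 8.04 on the log2 scale (SE 0.41, edgeR adjusted p = 1.17e-16) and than at 00:00 by 4.49 (SE 0.31, edgeR adjusted p = 4.91e-13). In LD it was at 39.8 and 39.1 CPM in WT and 29.0 and 21.6 CPM in csa at 20:00, and the highest library at any other LD time held 1.60 CPM.

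ADH1, the other alcohol dehydrogenase, had the same hour on a higher floor. In the SD evening it was at 177 and 221 CPM in WT and at 104 and 177 CPM in csa, against 13.7, 19.1, 28.4 and 18.2 CPM at 16:00. At 00:00 the 4 libraries held 66.3, 61.0, 34.1 and 35.4 CPM. All 4 libraries at 20:00 were above all 8 of the neighbouring times. The log2 fold change was 3.09 against 16:00 (SE 0.23, edgeR adjusted p = 5.23e-13) and 1.83 against 00:00 (SE 0.21, edgeR adjusted p = 3.78e-08). The sources used here do not say how reads were assigned between the copies, so a share of the reads of ADH1 and ADH2 may belong to the other gene.

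Other narrow genes also stood above both neighbouring times. LOC_Os05g45020 was at 85.3, 72.3, 48.5 and 46.8 CPM at 20:00 in SD and at 2.62, 2.46, 2.11 and 2.09 CPM at 16:00, in the order of 2 WT and 2 csa libraries used from here on. At 00:00 it had come down to 12.1, 11, 5.62 and 6.23 CPM. The groups did not overlap, and the log2 fold change was 4.72 against 16:00 (SE 0.25, edgeR adjusted p = 2.19e-16) and 2.89 against 00:00 (SE 0.22, edgeR adjusted p = 3.68e-12). LOC_Os06g04990 went from 0.0655, 0, 1.99 and 0.123 CPM at 16:00 to 17.3, 13.1, 12.7 and 13.4 CPM at 20:00 and was back at 1.67, 2.01, 0.258 and 1.17 CPM at 00:00. All 4 evening libraries stood above every neighbouring one, and against 00:00 the log2 fold change was 3.60 (SE 0.43, edgeR adjusted p = 5.65e-08). LOC_Os06g03520 was at 204, 243, 123 and 193 CPM at 20:00 and at 7.99, 7.57, 6.58 and 5.11 CPM at 16:00. Its log2 fold change against the other 5 times was 4.37 (SE 0.11, edgeR adjusted p = 5.07e-25).

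LOC_Os02g55890 and LOC_Os04g54310 were near 0 in the afternoon. At 16:00 in SD, LOC_Os02g55890 was at 0.131, 0.185, 0.302 and 0.185 CPM, and at 20:00 at 43.2, 38.5, 25.4 and 23.4 CPM, a log2 fold change of 7.27 (SE 0.32, edgeR adjusted p = 2.17e-18). LOC_Os04g54310 was at 1.11, 0.554, 0.724 and 0.615 CPM at 16:00 and at 80.9, 75, 48.7 and 50.7 CPM at 20:00, a log2 fold change of 6.37 (SE 0.38, edgeR adjusted p = 5.26e-15). Neither pair of groups overlapped. In LD the 04:00 libraries of LOC_Os04g54310 held 19.0, 17.6, 17.7 and 22.3 CPM, overlapping with 18.2, 23.5, 13.7 and 15.6 CPM at 20:00. On scaled levels it was the 1 member with its highest LD mean at 04:00. Its neighbour by locus number, LOC_Os04g54320, also belongs to the set, but with a broad shape: it was at 175, 181, 175 and 166 CPM at 20:00 in SD and at 112, 115, 122 and 116 CPM at 16:00. That was a log2 fold change of 0.59 (SE 0.18, edgeR adjusted p = 0.00707), with no overlap.

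Other members with neighbouring locus numbers are ADH1 with ADH2, LOC_Os03g63150 with LOC_Os03g63200, and LOC_Os09g24414 with LOC_Os09g24416. In the last pair, LOC_Os09g24414 was at 36.1, 39.4, 41.1 and 30.4 CPM at 20:00 in SD and at 5.50, 5.97, 2.35 and 9.48 CPM at 16:00, a log2 fold change of 2.66 (SE 0.46, edgeR adjusted p = 1.18e-05) with no overlap. LOC_Os09g24416 was at 33, 60.5, 55.5 and 47.6 CPM and at 11.3, 24.8, 4.46 and 22.3 CPM at the same hours, a log2 fold change of 1.66 (SE 0.47, edgeR adjusted p = 0.00358), also with no overlap. These neighbours may share reads too.

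Hd1 (LOC_Os06g16370), the rice CONSTANS homologue that promotes flowering in short days and represses it in long days, was 1 of the 2 members found in the gene lists. It was at 18.2, 17.6, 20.3 and 21.0 CPM at 20:00 in SD, at 6.09, 7.13, 4.83 and 4.99 CPM at 16:00 and at 15.0, 15.0, 14.8 and 12.6 CPM at 00:00. The evening values were above all of the afternoon ones, by 1.75 on the log2 scale (SE 0.18, edgeR adjusted p = 9.23e-10). They were also above all of the midnight ones, by 0.42 (SE 0.17, edgeR adjusted p = 0.0476), a call that ended when any of the 8 libraries was left out, with adjusted p between 0.0539 and 0.119. Against the other 5 times the log2 fold change was 2.47 (SE 0.12, edgeR adjusted p = 2.49e-17). In LD Hd1 was at 17.6, 24.6, 21.3 and 22.8 CPM at 20:00 and at 9.59, 14.1, 8.68 and 11.2 CPM at 16:00.

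ISA1 (LOC_Os08g40930), an isoamylase-type debranching enzyme that trims branches in starch synthesis, was the other. In SD it was at 26.3, 24.2, 26.1 and 22.9 CPM at 20:00, and at 16:00 at 3.54, 3.81, 4.59 and 4.06 CPM. At 00:00 it was at 23.8, 26.1, 31.0 and 29.7 CPM, overlapping with the evening. ISA1 was higher at 20:00 than at 16:00 by 2.64 on the log2 scale (SE 0.19, edgeR adjusted p = 2.58e-13), and the difference from 00:00 was −0.15 (SE 0.16, edgeR adjusted p = 0.526). Against the other 5 times it was 2.51 (SE 0.13, edgeR adjusted p = 2.94e-17), and 1.65 without the SD 12:00 libraries. In LD the afternoon level was higher: 21.7, 17.8, 19.6 and 16.9 CPM at 16:00, with 42.0, 39.4, 39.9 and 33.4 CPM at 20:00.

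**Figure D3:**
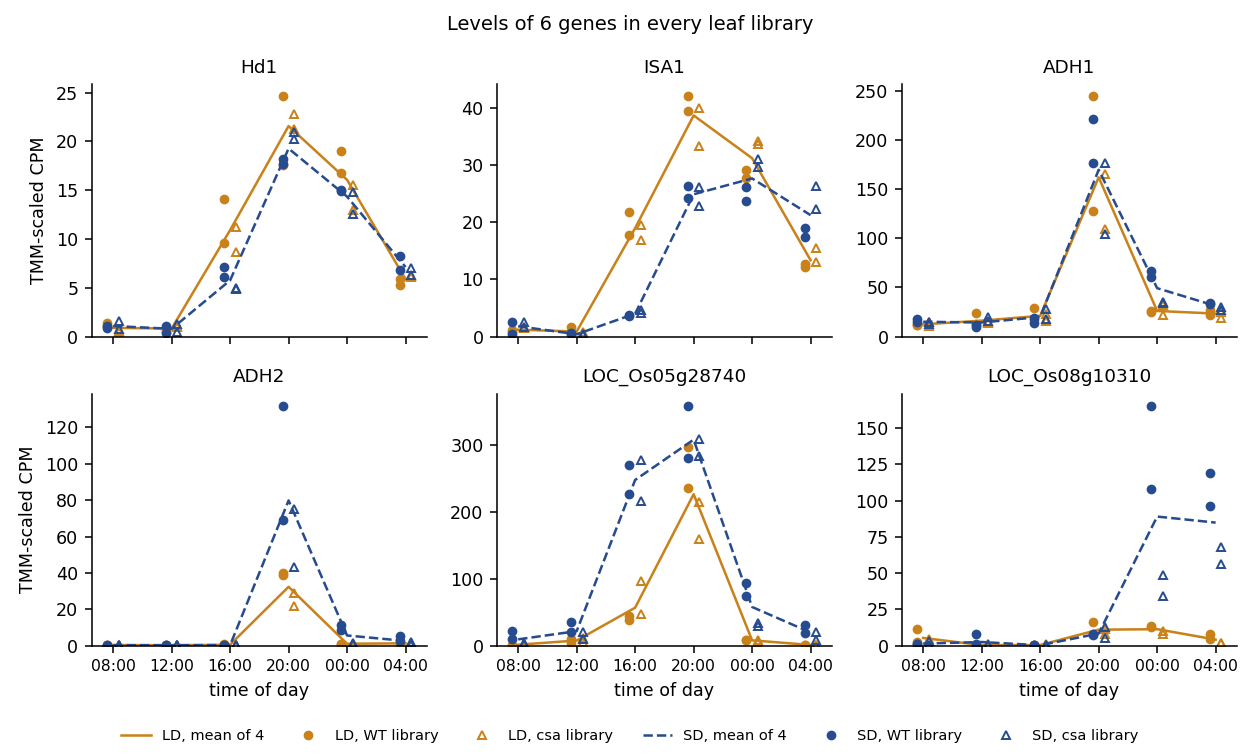
TMM-scaled CPM of Hd1, ISA1, ADH1, ADH2, LOC_Os05g28740 and LOC_Os08g10310 by time of day, with each point 1 leaf library (filled circles WT, open triangles csa) and each line the mean of the 4 libraries of a day length. ADH1 and ADH2 stand out at 20:00 in both day lengths, the SD line of ISA1 lies below its LD line at 16:00 and 20:00, and LOC_Os08g10310 is highest at 00:00 and 04:00 in SD.

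The night-side genes stayed high after 20:00, and some went higher. LOC_Os08g10310 was the only member that did not pass against the other 5 times, with a log2 fold change of 0.66 (SE 0.33, edgeR adjusted p = 0.0912); it passed without the filter on low counts (0.69, adjusted p = 6.84e-07), on unscaled library totals (0.96, adjusted p = 0.012), without WT SD 12:00 replicate 1 (0.87, adjusted p = 0.0117) and without csa SD 08:00 replicate 2 or csa SD 20:00 replicate 1. Without the SD 12:00 libraries its log2 fold change was 0.24 and without csa SD 20:00 replicate 2 it was 0.25, neither of which passed. In WT libraries only the change was 0.004 (edgeR adjusted p = 0.998), and in csa libraries only it was 1.32 (edgeR adjusted p = 0.0235). Both of these fits include the SD 12:00 libraries, whose markers lay closer to the other genotype, and the difference between them was not tested. LOC_Os08g10310 was at 7.22, 8.21, 5.42 and 12.8 CPM at 20:00 in SD and at 108, 165, 48.4 and 33.9 CPM at 00:00. The groups did not overlap, and the log2 fold change of 20:00 against 00:00 was −3.16 (SE 0.38, edgeR adjusted p = 9.09e-08). In LD its 4 libraries at 00:00 held only 13.2, 13.9, 10.2 and 8.19 CPM.

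LOC_Os11g35450 and LOC_Os07g35790 were also lower at 20:00 than at 00:00. LOC_Os11g35450 was at 5.73, 5.76, 4.57 and 7.57 CPM and then at 9.43, 12.0, 9.03 and 9.54 CPM, with no overlap and a log2 fold change of −0.75 (SE 0.22, edgeR adjusted p = 0.00751). Without csa SD 20:00 replicate 1 its adjusted p was 0.061. LOC_Os07g35790 was at 71.2, 79.1, 43.7 and 50.7 CPM and then at 163, 99.3, 63.2 and 63.5 CPM, overlapping groups with a log2 fold change of −0.62 (SE 0.21, edgeR adjusted p = 0.0235). That call ended without any of 4 libraries, and without WT SD 00:00 replicate 1 the change was −0.39 (adjusted p = 0.205). LOC_Os06g19444, the steepest night-side gene of LD, was by contrast higher at 20:00 in SD, at 296, 266, 311 and 272 CPM, than at 00:00, at 231, 210, 245 and 208 CPM. The groups did not overlap, and the log2 fold change was 0.36 (SE 0.11, edgeR adjusted p = 0.0129). Its step from 16:00, where it held 30.1, 30.8, 21.1 and 23.8 CPM, was 3.45 (SE 0.13, edgeR adjusted p = 3.60e-20).

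Toward the afternoon, 5 members were lower at 20:00 than at 16:00 in SD, 3 of them of the broad shape and 2 of the afternoon-side shape. LOC_Os09g13600, a broad gene, was at 24.5, 25, 21.4 and 20.0 CPM at 16:00 and at 16.3, 12.9, 15.1 and 11.8 CPM at 20:00, with no overlap and a log2 fold change of −0.69 (SE 0.16, edgeR adjusted p = 0.000439). LOC_Os06g15330, also broad, was at 74.8, 83.2, 84.1 and 65.4 CPM at 16:00 and at 57.6, 51.3, 40.5 and 43.7 CPM at 20:00, with a log2 fold change of −0.68 (SE 0.18, edgeR adjusted p = 0.00157). LOC_Os03g16780, an afternoon-side gene, was at 21.5, 23.9, 20.5 and 16.2 CPM and then at 16.5, 12.8, 11.8 and 12.8 CPM, with a log2 fold change of −0.60 (SE 0.20, edgeR adjusted p = 0.0114). Its groups overlapped at 1 library, and the call ended without csa SD 16:00 replicate 1 (adjusted p = 0.0547) and on unscaled library totals (−0.35, adjusted p = 0.144). On those totals the median of all tested genes moves from 0.01 to 0.26 in this comparison, and LOC_Os09g13600 and LOC_Os06g15330 have −0.44 and −0.43.

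The steepest gene of the choice, LOC_Os03g55670, was at 340, 277, 297 and 344 CPM at 16:00 in SD and at 224, 227, 258 and 268 CPM at 20:00. The groups did not overlap, but the difference of −0.37 (SE 0.18) did not pass (edgeR adjusted p = 0.0821). LOC_Os07g30670, next in rank, was level from 16:00 (465, 520, 468 and 483 CPM) to 20:00 (548, 492, 466 and 440 CPM), with a log2 difference of 0.01 (SE 0.19, edgeR adjusted p = 0.992). LOC_Os12g39630 went up over the same hours, from 208, 195, 179 and 173 CPM to 323, 289, 349 and 312 CPM, a log2 fold change of 0.76 (SE 0.11, edgeR adjusted p = 4.99e-07) with no overlap.

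LOC_Os05g28740 changed shape between the day lengths. In LD it was narrow, with 44.9, 37.7, 48 and 96.5 CPM at 16:00, 297, 235, 159 and 214 CPM at 20:00 and 8.14, 8.78, 9.01 and 6.11 CPM at 00:00. In SD it was at 270, 226, 277 and 216 CPM at 16:00, at 358, 281, 283 and 308 CPM at 20:00 and at 93.3, 74.4, 33.6 and 29.9 CPM at 00:00. Its SD difference between 20:00 and 16:00 was 0.31 (SE 0.28, edgeR adjusted p = 0.368), and between 20:00 and 00:00 it was 2.57 (SE 0.30, edgeR adjusted p = 5.21e-08).

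The weakest evening changes in SD that passed were those of LOC_Os06g15330 (0.49 against the other 5 times), LOC_Os04g49500 (0.96), LOC_Os04g54320 (0.96) and LOC_Os08g12780 (1.08). For LOC_Os06g15330 the call ended without the SD 12:00 libraries (0.30, adjusted p = 0.0666). LOC_Os04g49500 was at 3.50, 5.22, 4.91 and 4.99 CPM at 20:00 in SD and at 11, 13.5, 11.2 and 13.2 CPM at the same hour in LD.

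The SD and LD levels of the members differed most late in the night. At 04:00, 92 of the 100 genes had a higher mean in SD than in LD, 52 of them by more than 2-fold, with a median log2 difference of 1.12 (0.5 CPM added to both means). The same held for 89 members in WT and 92 in csa. Of the other 5416 genes with an LD maximum at 20:00, 66.2% were higher in SD at 04:00, with a median of 0.13, and of all tested genes 51.9%. The share of members higher in SD was 85 of 100 at 08:00, 57 at 12:00, 55 at 16:00, 70 at 20:00 and 72 at 00:00. The LD values entered the choice of the genes, which favoured a low LD minimum, so these differences are descriptions with no test. SD plots were also the ones covered with film, and the cover cannot be told apart from day length.

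Put within each day length, the median member kept 41.5% of its 20:00 level at 04:00 in SD and 22.0% in LD. At 16:00 the order was the other way, with 41.7% in SD and 53.4% in LD, and at 00:00 the medians were 59.2% and 58.5%. The difference at 04:00 was largest for LOC_Os08g10310, whose 4 libraries held 4.70, 8.22, 2.09 and 1.83 CPM in LD and 119, 96.4, 67.9 and 56.0 CPM in SD. LOC_Os05g28740 followed, at 1.14, 0.655, 1.42 and 1.07 CPM in LD and 30.3, 19.5, 20.0 and 9.07 CPM in SD. LOC_Os02g14440 was at 18.5, 4.29, 12.1 and 10.5 CPM in LD and at 106, 78.4, 109 and 98.8 CPM in SD. In none of the 3 did the day lengths overlap at that hour. At the other end, LOC_Os02g55890 was at 11.9, 12.2, 8.64 and 6.18 CPM in LD and at 8.71, 6.26, 7.32 and 4.90 CPM in SD, with overlap.

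**Figure D4:**
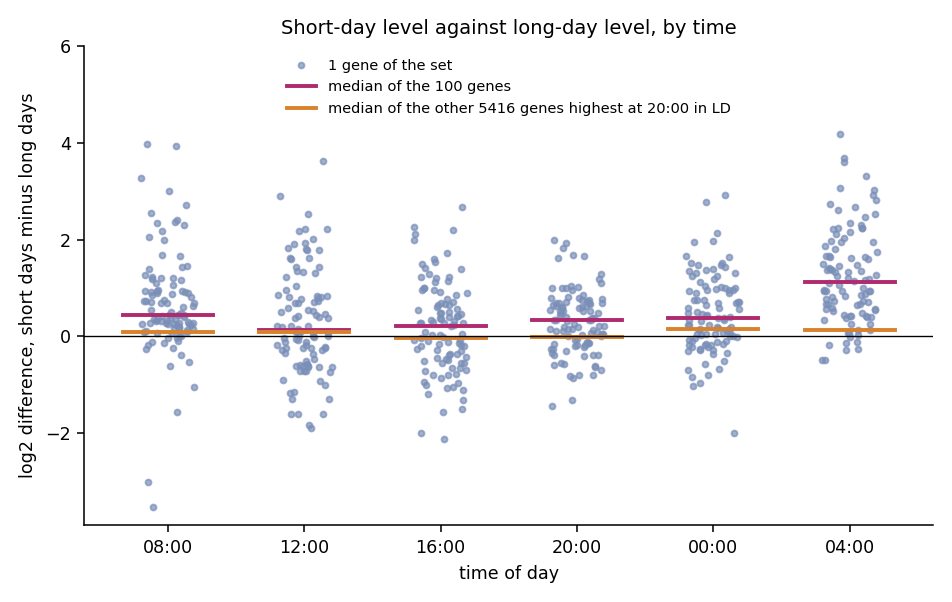
Difference of the log2 mean level between SD and LD for each of the 100 genes (points) at each time of day, with the median of the members and the median of the other 5416 genes highest at 20:00 in LD as bars. The members' median is 1.12 at 04:00 and between 0.13 and 0.44 at the other times.

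Most members did not pass as different between csa and WT leaves. Averaged over the 5 SD times with usable labels, 6 of the 100 genes were lower in csa leaves and none higher (edgeR adjusted p under 0.05), where 0.706% of all tested genes were called lower and 0.629% higher, 1.34% together. Without the filter on low counts 22 were lower and 2 higher, and DESeq2 called 12, all lower. The shares of all genes called under these 2 settings are not given here or below. Counts under them therefore cannot be read as an excess of members. The count depended on the morning libraries: it was 3 without WT SD 08:00 replicate 1 and 13 without WT SD 08:00 replicate 2. Of the 6 leaf markers, edgeR called none in this comparison.

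LOC_Os05g45020 had the largest difference of the 6. Its 10 WT libraries ranged from 0.261 to 85.3 CPM with a median of 8.24 CPM, and its 10 csa libraries from 0 to 48.5 CPM with a median of 4.69 CPM. At 20:00 and at 00:00 every csa library was below every WT library, as the values above show. The log2 fold change was −1.12 (SE 0.27, edgeR adjusted p = 0.0263), and the call ended without WT SD 08:00 replicate 1 (adjusted p = 0.248) or csa SD 08:00 replicate 1 (adjusted p = 0.101). LOC_Os05g28740 ranged from 10.1 to 358 CPM in WT, with a median of 83.9 CPM, and from 2.05 to 308 CPM in csa, with a median of 31.8 CPM. The genotypes separated at 00:00 but overlapped at 20:00, and the log2 fold change was −0.96 (SE 0.20, edgeR adjusted p = 0.00615).

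LOC_Os04g58280 ranged from 4.87 to 216.0 CPM in WT, median 45.1 CPM, and from 1.54 to 176 CPM in csa, median 21.9 CPM. At 00:00 its WT libraries held 50.3 and 39.9 CPM and its csa libraries 23.4 and 20.3 CPM. Over the 5 times the log2 fold change was −0.85 (SE 0.15, edgeR adjusted p = 0.000924). The other genes called lower were LOC_Os07g35790 (−0.72), LOC_Os01g19820 (−0.71) and LOC_Os06g03520 (−0.62).

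In LD leaves 4 members were higher in csa over the 6 times and none lower, where 1.79% of all tested genes were called higher and 1.63% lower, 3.42% together. These LD libraries also chose the members, through time means over both genotypes. Genotype values in LD leaves, and the calls and adjusted p-values given with them here and below, are therefore not independent of the choice. They are given as a description. Without the filter on low counts 13 were higher and 4 lower, and DESeq2 called 10, all higher. On unscaled library totals the split was 2 higher and 4 lower, and the median of all tested genes moved to −0.11. The count was 1 without the 12:00 libraries and 2 without WT LD 08:00 replicate 1. Of the 6 leaf markers 5 were higher in csa in LD leaves, with a median log2 fold change of 0.54, and their part in the result was not tested.

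LOC_Os02g14440 ranged from 0.704 to 229 CPM in the 12 WT libraries, median 42.5 CPM, and from 6.05 to 282 CPM in the 12 csa libraries, median 45.7 CPM. The morning separated them, with 1.61 and 0.704 CPM in WT and 8.47 and 6.05 CPM in csa at 08:00. The log2 fold change over the 6 times was 0.95 (SE 0.19, edgeR adjusted p = 0.00196). LOC_Os04g49500 (0.88, edgeR adjusted p = 0.0383) lost its call without the 12:00 libraries and without any of 13 of the 24 libraries, among them csa LD 08:00 replicate 2 (0.57, adjusted p = 0.491).

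LOC_Os06g03520 was 1 of the 4, with a log2 fold change of 0.49 (SE 0.12, edgeR adjusted p = 0.0182) although its mean CPM was 12.6 in WT and 12.5 in csa. At 16:00 its LD libraries held 4.63 and 5.08 CPM in WT and 8.11 and 8.92 CPM in csa, and at 20:00 they held 53.0 and 52.5 CPM in WT and 49.6 and 36.1 CPM in csa. The genotypes thus lay in opposite order at the low and the high hour. Its call ended without WT LD 08:00 replicate 1 (adjusted p = 0.0562), without csa LD 08:00 replicate 1 (0.0773), without the 12:00 libraries and on unscaled totals. The fourth gene, LOC_Os03g50510, had 0.27 (SE 0.07, edgeR adjusted p = 0.0165).

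The difference between the genotype effects of SD and LD was fitted as an interaction over the 5 shared times. It includes the LD libraries that chose the members, so it carries the same limit. It passed for 2 members, both lower, where 0.163% of all tested genes were called lower and 0.0407% higher, 0.204% together. Without the filter on low counts 12 were lower and 2 higher, and DESeq2 called 5, all lower. The 2 were LOC_Os04g58280, with −1.44 (SE 0.27, edgeR adjusted p = 0.0208), and LOC_Os06g03520, with −1.05 (SE 0.17, edgeR adjusted p = 0.00468). The count was 1 without csa LD 08:00 replicate 1, where LOC_Os04g58280 had an adjusted p of 0.0524, 4 without csa LD 16:00 replicate 1, and 6 without WT SD 08:00 replicate 2 or without WT LD 04:00 replicate 1.

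At the evening peak itself no member passed between genotypes. In SD at 20:00, 0 of the 100 genes passed (edgeR), with 8 at an unadjusted p under 0.05, and DESeq2 called 0. Of all tested genes edgeR called 0.0769% higher and 0.118% lower in csa at that hour, 0.195% together. The genotypes did not overlap there in 40 of the 100 members and in 36.9% of all tested genes. In LD at 20:00, 0 passed (edgeR), with 7 at an unadjusted p under 0.05, and DESeq2 called 0, where 0.0588% of all tested genes were called higher and 0.104% lower, 0.163% together. The LD libraries at 20:00 also chose the members, so the LD counts are not independent of the choice and are a description. Without the filter on low counts edgeR called 3 members in SD and 5 in LD at this hour. Each of these tests rests on 2 libraries per genotype, and the log2 difference of ADH2 in SD, −0.77 (SE 0.36), did not pass (edgeR adjusted p = 1).

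Afternoon and late-night levels of the same genes were compared in anthers. Anthers were taken at 16:00 and 04:00 only, so the evening hour itself was not sampled. Of the 93 members tested, 32 were higher at 16:00 than at 04:00 and 11 lower (edgeR adjusted p under 0.05), where 10.7% of all 25203 anther genes tested were called higher and 10.1% lower, 20.7% together. The median log2 fold change was 0.15, against 0.01 over all tested genes. The times did not overlap in 7 of the 93 members and in 1.67% of all tested genes. By LD shape in leaves, 10 of 17 afternoon-side genes and 12 of 34 broad genes were higher at 16:00, and 1 of each was lower. Of the night-side genes 4 of 23 were higher and 7 lower, and of the narrow genes 6 of 19 were higher and 2 lower. With SD libraries only, 21 members passed. The share of all tested genes called under that setting is not given, so the 21 cannot be read as an excess of members.

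LOC_Os05g28740 had the largest difference. Its 8 anther libraries ranged from 1.41 to 8.86 CPM at 16:00, median 4.22 CPM, and from 0.210 to 2.92 CPM at 04:00, median 0.737 CPM. The log2 fold change was 2.56 (SE 0.24, edgeR adjusted p = 1.64e-05), and 3.86 in WT libraries alone, with overlap only through the csa libraries. LOC_Os03g61150 ranged from 18.9 to 33.6 CPM at 16:00, median 22.9 CPM, and from 2.66 to 18.4 CPM at 04:00, median 7.81 CPM. The times did not overlap, and the log2 fold change was 1.80 (SE 0.13, edgeR adjusted p = 1.64e-06).

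LOC_Os05g03750 ranged from 5 to 12.2 CPM at 16:00, median 7.42 CPM, and from 0.804 to 4.80 CPM at 04:00, median 2.64 CPM, with a log2 fold change of 1.79 (SE 0.12, edgeR adjusted p = 8.21e-07). LOC_Os12g39630 ranged from 82.5 to 175 CPM at 16:00, median 149 CPM, and from 33.2 to 69.8 CPM at 04:00, median 48.9 CPM, with a log2 fold change of 1.45 (SE 0.05, edgeR adjusted p = 3.30e-09). LOC_Os03g55670 ranged from 22.9 to 48.5 CPM at 16:00 and from 9.95 to 21.4 CPM at 04:00, with a log2 fold change of 1.14 (SE 0.09, edgeR adjusted p = 2.78e-06). None of these 3 overlapped between the times; LOC_Os12g39630 and LOC_Os03g55670 are shown as members with the highest LD ratios.

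Downward, the 3 largest called changes were in genes at low level. LOC_Os01g72370 had −1.48 (SE 0.39, edgeR adjusted p = 0.0186), from a mean of 0.556 CPM at 04:00 to 0.300 CPM at 16:00. LOC_Os08g10310 had −1.36 (SE 0.26, edgeR adjusted p = 0.00309), from 3.67 to 1.61 CPM, and LOC_Os03g08490 had −1.29 (SE 0.25, edgeR adjusted p = 0.00334), from 3.64 to 1.24 CPM. The times overlapped in all 3. Among genes with at least 5 CPM at one of the times, LOC_Os01g12160 ranged from 49.95 to 100.2 CPM at 16:00, median 82.75 CPM, and from 74.95 to 189 CPM at 04:00, median 127 CPM, with a log2 fold change of −0.61 (SE 0.09, edgeR adjusted p = 0.000434) that did not pass with SD libraries only (adjusted p = 0.062) and was −0.40 with WT libraries only (adjusted p = 0.043). LOC_Os02g55890 had −0.62 (SE 0.14, edgeR adjusted p = 0.00723) and LOC_Os05g09580 −0.61 (SE 0.16, edgeR adjusted p = 0.0154). In WT libraries alone these were −0.40 (adjusted p = 0.166) and 0.04 (adjusted p = 0.934). ISA1 passed upward by 0.27 (SE 0.07, edgeR adjusted p = 0.0162), but it was at −0.16 in WT alone (adjusted p = 0.298) and its call ended without WT LD 04:00 replicate 2 (adjusted p = 0.052). ADH1 did not pass, with −0.11 (SE 0.09, edgeR adjusted p = 0.445) and means of 359 CPM ± 109 (SD, n = 8) at 16:00 and 387 CPM ± 96.6 (SD, n = 8) at 04:00.

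**Figure D5:**
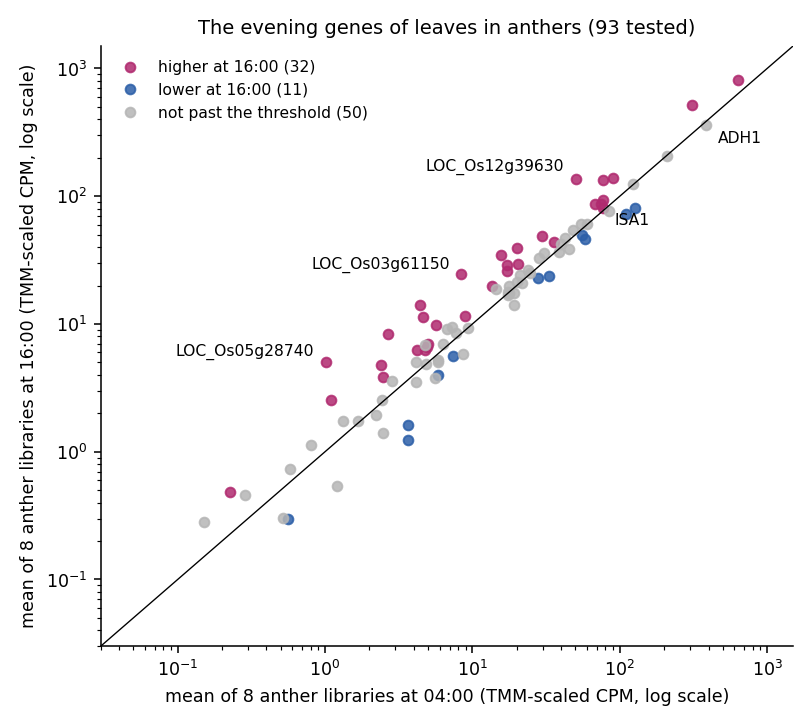
Mean level of each of the 93 tested genes in 8 anther libraries at 04:00 (horizontal) and in 8 at 16:00 (vertical), on log axes, with the line of equal levels. The 32 genes higher at 16:00 lie above the line, LOC_Os05g28740 and LOC_Os03g61150 among them, and the 11 lower genes lie below it.

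More members were called between genotypes in anthers than in leaves; that contrast between tissues was not itself tested. In SD anthers 49 of the 93 were higher in csa and 15 lower, where 25.8% of all tested anther genes were called higher and 21.6% lower, 47.5% together. In LD anthers 34 were higher and 12 lower, where 18.7% were called higher and 16.5% lower, 35.2% together; on unscaled totals that split was 41 and 7, with the median of all tested genes at 0.13. The genotypes did not overlap in 32 of the 93 members and in 26.6% of all tested genes in SD anthers. In LD anthers there was no overlap in 23 members and in 22.3% of all tested genes. Higher in csa in both day lengths were 29 members, and 10 were lower in both. The share of all tested genes called in both was not counted. It can be at most 18.7% for higher and 16.5% for lower. Markers moved with genotype here. All 6 leaf markers were higher in csa in SD anthers, with a median log2 fold change of 1.16, and all 6 anther markers were lower, with a median of −1.47. In LD anthers 2 of 6 leaf markers were higher and 4 of 6 anther markers lower. Their part in the counts of members was not tested.

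Both named genes of the lists were lower in csa anthers. ISA1 was at 98.2, 100, 125 and 149 CPM in the SD anther libraries of WT and at 39.4, 49.4, 31.3 and 32.7 CPM in those of csa, with no overlap and a log2 fold change of −1.63 (SE 0.10, edgeR adjusted p = 1.13e-06). In LD anthers it was at 111, 121, 107 and 101.1 CPM in WT and at 65.5, 67.2, 39.0 and 31.3 CPM in csa, a log2 fold change of −1.19 (SE 0.10, edgeR adjusted p = 1.84e-05). The genotypes did not overlap in either day length. Hd1 was at low levels, 1.67, 1.92, 3.22 and 2.26 CPM in SD anthers of WT against 0.618, 0.673, 1.10 and 1.18 CPM in those of csa, with a log2 fold change of −1.37 (SE 0.22, edgeR adjusted p = 0.000483). In LD anthers Hd1 fell by 1.45 on the log2 scale (SE 0.21, edgeR adjusted p = 0.000546).

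ADH2 was lower as well, at 7.93, 16.3, 6.92 and 12.4 CPM in WT and 2.68, 1.89, 3.10 and 4.00 CPM in csa in SD anthers. That was a log2 fold change of −1.93 (SE 0.26, edgeR adjusted p = 0.00015) with no overlap, and in LD anthers it was −1.25 (SE 0.26, edgeR adjusted p = 0.00368). LOC_Os06g20150 was nearly absent from csa anthers in SD, at 0, 0, 0.227 and 0.102 CPM against 8.74, 18.1, 7.37 and 1.10 CPM in WT. Its fitted log2 fold change of −7.89 (SE 1.35, edgeR adjusted p = 0.000903) depends on the prior count and is no bound. In LD anthers it was at 15.9, 29.9, 16.1 and 27.4 CPM in WT and at 3.16, 0.0505, 4.21 and 1.51 CPM in csa, a log2 fold change of −3.38 (SE 0.73, edgeR adjusted p = 0.00496), or −5.79 without csa LD 16:00 replicate 1.

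LOC_Os06g11400 was at 31.6, 33.3, 18.5 and 24 CPM in WT and at 6.65, 7.57, 7.44 and 6.87 CPM in csa in SD anthers, a log2 fold change of −1.88 (SE 0.21, edgeR adjusted p = 5.50e-05) with no overlap. LOC_Os02g55890 was lower in csa in LD anthers, at 2.30, 3.18, 3.17 and 3.06 CPM against 6.24, 4.17, 11.1 and 9.39 CPM in WT. That was a log2 fold change of −1.32 (SE 0.19, edgeR adjusted p = 0.000593), again with no overlap.

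Upward, LOC_Os06g36390 separated the genotypes in both day lengths. It was at 4.21, 3.32, 4.67 and 4.62 CPM in SD anthers of WT and at 15.6, 23.6, 14.7 and 19.3 CPM in those of csa, a log2 fold change of 2.13 (SE 0.16, edgeR adjusted p = 4.80e-06). In LD anthers it was at 2.90, 2.89, 1.41 and 1.66 CPM in WT and at 11.8, 10.2, 15.4 and 12.5 CPM in csa, a log2 fold change of 2.55 (SE 0.17, edgeR adjusted p = 4.79e-06). LOC_Os05g27780 was at 13.5, 15.8, 8.18 and 6.46 CPM in SD anthers of WT and at 26.1, 28.6, 28.0 and 37.8 CPM in those of csa, a log2 fold change of 1.53 (SE 0.13, edgeR adjusted p = 1.05e-05). None of these groups overlapped. The changes of some genes under 5 CPM were larger. LOC_Os02g57700 was at 0, 0, 0.259 and 0.0525 CPM in SD anthers of WT and at 1.44, 1.89, 1.17 and 1.38 CPM in those of csa, with a fitted log2 fold change of 5.53 (SE 0.74, edgeR adjusted p = 0.000214) that depends on the prior count, and 4.75 in LD anthers. Higher in SD anthers by more than LOC_Os06g36390 were also LOC_Os11g15624 (3.07) and LOC_Os01g72370 (2.60), and in LD anthers LOC_Os11g15624 (2.59), LOC_Os01g72370 (1.73) and LOC_Os03g02860 (1.46) had larger changes than the 2 named next for LD. LOC_Os06g48500 had 1.67 (SE 0.37, edgeR adjusted p = 0.00343) in SD anthers, and in LD anthers LOC_Os05g09580 had 1.20 (SE 0.22, edgeR adjusted p = 0.00192) and LOC_Os04g58280 had 1.19 (SE 0.18, edgeR adjusted p = 0.000747).

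The gene lists were searched for members and for the same test. None of the 12 clock genes listed had its highest LD mean at 20:00, and none had its highest SD mean there. In SD leaves 5 of the 12 were higher at 20:00 than over the other 5 times and 4 lower. Of all tested genes 32.4% were called higher and 23.3% lower. GI, the clock protein GIGANTEA, had 2.72 (SE 0.08, edgeR adjusted p = 1.05e-22), and LHY, the morning repressor of the clock, had −5.27 (SE 0.15, edgeR adjusted p = 1.77e-23). Against 16:00, 8 of the 12 clock genes were lower and 2 higher, where 26.4% of all tested genes were called lower and 26.7% higher. Against 00:00, 8 were higher and 2 lower, where 17.6% of all tested genes were called in each direction.

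Of the 16 flowering genes and photoreceptors, 6 met the LD maximum of the rule, which used unscaled totals. On scaled levels 3 of the 16 had their highest LD mean at 20:00. Hd1 alone was steep enough to be taken. In SD 6 of the 16 were higher at 20:00 than over the other times and 6 lower. The phytochrome gene PHYB had 1.53 (SE 0.08, edgeR adjusted p = 4.51e-17). Of the 22 starch and sucrose genes tested, 5 were higher and 7 lower, ISA1 among the higher ones. Of 10 sugar transport genes 1 was higher and 5 lower, and of 9 jasmonate genes 5 were higher and 1 lower. These list counts stand beside 32.4% of all tested genes called higher and 23.3% lower.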

How the data were processed

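Total RNA of rice flag leaves and anthers was sequenced, and the authors deposited a table of read counts per gene for each tissue, with no normalization per the file headers and the values. The aligner, counter and genome build behind these counts are not named in the labels or the file headers. Levels are CPM on library totals scaled by TMM factors. Comparisons used the edgeR 4.0.16 quasi-likelihood test (R 4.3.3, limma 3.58.1) on the deposited counts, with filterByExpr, a mean for each group and Benjamini-Hochberg adjustment over all 22095 leaf or 25203 anther genes tested, at a threshold of 0.05. DESeq2 1.42.0 was an alternative. The fits were also run on simulated counts in which most genes had the same mean in every group, unlike the leaf data. The outcome of that run is not given and is not used as support. Tables and figures used Python 3.11.15, pandas 2.3.3, numpy 2.4.6 and matplotlib 3.10.9.

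The members and the lists were chosen with earlier results of these data known. Genes are named where they are list members, have the 10 highest LD ratios, have the largest changes past the threshold in a comparison (between genotypes and in anthers, among genes with at least 5 CPM in the higher group), or lie next to the limit of the choice. ADH1, ADH2 and the anther changes of genes under 5 CPM were named after their values were seen. No table used here pairs locus identifiers with symbols. List symbols were matched to loci from general knowledge. RefSeq (ASM3414082v1) holds the symbol on the same chromosome for 50 of 84, and a list gene is given by symbol only with that match, Hd1 and ISA1 included. Counts over the lists and markers also include the genes without it. Other members are given by locus identifier.

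Replicate numbers did not pair the samples: deviations of same-numbered libraries correlated between −0.22 and 0.20 in leaves and between −0.29 and 0.33 in anthers. No 2 replicates agreed within counting noise.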

Additional observations from a re-analysis of the deposited data

Results flagged for a closer look

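In leaves, the fitted difference between the genotype effects of SD and LD passed the threshold for 2 members. For LOC_Os04g58280 it was −1.44 on the log2 scale (edgeR adjusted p = 0.0208), from −0.85 in SD and 0.47 in LD. For LOC_Os06g03520 it was −1.05 (edgeR adjusted p = 0.00468), from −0.62 in SD and 0.49 in LD. The LD values are over all 6 times, and the differences over the 5 shared ones. The LD libraries also chose the members, so these differences are not independent of the choice.

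In anthers, 3 members had every library of one group moving one way between 04:00 and 16:00 and every library of another group moving the opposite way. These differences were not tested, and they are in log2 of CPM with 0.5 CPM added. In WT, the 16:00 minus 04:00 difference of LOC_Os02g55890 was 0.17 in SD and −0.94 in LD, 1.10 apart. That of LOC_Os05g09580 was 1.44 in SD and −1.42 in LD, 2.86 apart, and that of ISA1 was −0.46 in SD and 0.15 in LD, a difference of −0.61. In SD, the csa values were −1.24 for LOC_Os02g55890, −1.49 for LOC_Os05g09580 and 0.46 for ISA1, so WT minus csa was 1.41, 2.93 and −0.92.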

How the results depend on the processing

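The evening comparisons in SD held their counts within 1.5 times under every alternative run. Fits that left out 1 library kept the tested genes and the trend of spread with level from the fit to all libraries. They are therefore not fully independent of the library left out. Leaving out 1 library at a time gave 98 to 100 members past the threshold against the other 5 times, 71 to 75 against 16:00 and 65 to 70 against 00:00. The same gave 3 to 13 for csa in SD leaves, 2 to 6 in LD leaves, 1 to 6 for the difference between day lengths, 0 at 20:00 in SD and in LD, 34 to 45 for the anther times, 50 to 60 for csa in SD anthers and 33 to 45 in LD anthers. Without the filter on low counts csa against WT called 24 members in SD leaves, 17 in LD leaves, 14 by day length, 3 at SD 20:00 and 5 at LD 20:00. DESeq2 called 12, 10 and 5 for the first 3 of these. LD leaves without the 12:00 libraries gave 1, and anther times with SD libraries only gave 21. The shares of all tested genes called under these alternatives are not given, so their counts cannot be read as an excess of members. In WT libraries only, the anther time difference of LOC_Os05g09580 turned to 0.037 and that of ISA1 to −0.16. The cause of these changes was not tested.

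The choice itself shared 57 of 100 genes with one made at an offset of 5 CPM, 71 on TMM-scaled totals, 77 in WT and 78 in csa libraries alone, and 77 to 83 with 1 replicate number left out. Unscaled totals, an alternative chosen after seeing the data, moved the median of all tested genes to 0.35 in SD 20:00 against the other 5 times.

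With the replicate block, the counts were 99, 77 and 71 for the SD times, 6, 4 and 2 for csa in SD leaves, LD leaves and by day length, 0 at 20:00 in either day length, 41 for the anther times, and 63 and 43 for csa in SD and LD anthers. Counting error is largest for the members near 0 CPM.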
